A study of Mus musculus with 11 samples.

Results

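The block described here is the stretch of mouse chromosome 5 from 94 to 96 Mb (build mm9), a region of multicopy genes in which peaks of huntingtin (HTT) were called densely and again and again. Its members are the peaks of 7 HTT ChIP-seq lists that start inside it, 5307 of the 1298473 peaks of all lists on the 19 autosomes, X and Y. The block was chosen by the number and recurrence of its peaks over the 7 lists, so its density and recurrence against the rest of chromosome 5 are given as a description, with no test. For comparison, the 5 Mb before it held 3013 peaks and the 5 Mb after it 3240. The 2 groups were striatum, the forebrain region most affected in Huntington's disease, of male Q111/+ mice and of their WT littermates at 4 months of age. Q111/+ animals carry 1 Htt allele with an expanded CAG repeat knocked into the endogenous mouse gene and 1 normal allele, on a B6 background, and every cell type of the tissue carries it. There were 4 Q111/+ and 3 WT libraries, and 4 input libraries without antibody selection are not analysed here. The tissue was not sorted, peak lists hold no marker levels against which the labelled tissue could be checked, and the labels do not say whether the antibody tells mutant from normal HTT.

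HTT is a large, mostly cytoplasmic scaffold protein that also enters the nucleus, and its expanded form is known to bind transcription factors and to alter transcription in the striatum. From general knowledge of the mouse genome, the stretch between Ccng2, a cyclin gene, and Cxcl13, a chemokine gene, holds an expanded array of Pramel genes, leucine-rich repeat proteins of the PRAME family that are known mainly from the germ line and the early embryo. In the RefSeq table used here (GRCm38.p6) 46 genes lie between Ccng2 and Cxcl13, of which 30 are protein-coding and 13 are pseudogenes, and 18 of them are named Pramel33 to Pramel50. That this array is the block at 94 to 96 Mb of mm9 is background that was not checked on the files. The builds differ, so no peak was placed relative to a gene, an exon or a promoter.

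Promoters of the array are shown because they range from identical to unlike, which shows how closely some of its copies resemble each other. RefSeq promoters, from 250 bases before to 50 bases after a gene's start, were in the table for 12 of the 18 Pramel genes. Of the 66 pairs, 12 were at least 90% identical over their alignment, the median identity was 51.0%, and the lowest was 47.4%. Pramel37, Pramel39, Pramel43, Pramel46, Pramel49 and Pramel50 formed 1 group linked at 90% or more, Pramel33 and Pramel35 another, and Pramel38, Pramel40, Pramel45 and Pramel48 stood alone. Each sequence runs 5′ to 3′ on the gene's own strand, and capitals mark the bases of Pramel43 that its alignment leaves unmatched in Pramel50, and those of Pramel35 that are unmatched in Pramel33.
Pramel50 (Pramel37 has the same letters throughout): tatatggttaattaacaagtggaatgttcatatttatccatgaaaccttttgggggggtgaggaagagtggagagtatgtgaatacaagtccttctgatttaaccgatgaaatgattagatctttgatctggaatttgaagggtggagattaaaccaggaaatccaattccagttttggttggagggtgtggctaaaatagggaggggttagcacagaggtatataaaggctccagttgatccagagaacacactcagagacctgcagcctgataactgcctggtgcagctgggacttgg
Pramel43: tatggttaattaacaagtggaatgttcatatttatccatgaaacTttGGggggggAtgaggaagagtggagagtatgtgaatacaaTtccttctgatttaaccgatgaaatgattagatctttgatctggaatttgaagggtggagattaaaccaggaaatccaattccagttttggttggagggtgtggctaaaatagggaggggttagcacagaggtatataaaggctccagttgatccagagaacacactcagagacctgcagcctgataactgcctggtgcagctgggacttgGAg
Pramel33: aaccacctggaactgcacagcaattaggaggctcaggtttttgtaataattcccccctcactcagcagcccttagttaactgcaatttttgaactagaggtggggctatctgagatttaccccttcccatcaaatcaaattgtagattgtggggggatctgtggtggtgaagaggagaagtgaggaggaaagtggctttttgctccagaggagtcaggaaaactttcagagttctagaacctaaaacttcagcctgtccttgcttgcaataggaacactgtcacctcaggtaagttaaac
Pramel35: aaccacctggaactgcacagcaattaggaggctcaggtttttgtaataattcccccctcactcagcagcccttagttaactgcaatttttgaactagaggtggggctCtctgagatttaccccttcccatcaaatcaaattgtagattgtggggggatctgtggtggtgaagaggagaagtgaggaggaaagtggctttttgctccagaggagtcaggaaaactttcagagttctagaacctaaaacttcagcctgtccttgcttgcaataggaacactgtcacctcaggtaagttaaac
Pramel43 was 97.0% identical to Pramel50 with 7 of its bases unmatched, and Pramel35 was 99.7% identical to Pramel33 with 1 base unmatched. Pramel37 and Pramel50 did not differ by a single base over the 300 bases. No label or header used here says how reads matching several such copies were placed, so a peak of the block may not belong to the copy at which it is listed.

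The lists were of unequal length, from 88920 to 111287 peaks in Q111/+ and 495334, 248983 and 137373 in WT replicates 1, 2 and 3, so the share of a list that lies in the block is compared as well as the number of peaks. The libraries also fall into 2 sets by the prefix in the names of their lists, DB and JP, which no source used here explains. The DB set holds Q111/+ replicates 1 and 2 and WT replicate 1, and the JP set holds Q111/+ replicates 3 and 4 and WT replicates 2 and 3. Sequencing depth is unknown. The labels do not tie the libraries to separate animals, so p-values reflect only how far these samples vary, and that variation may be technical.

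Every library had many peaks in the block. Q111/+ replicates 1 to 4 had 489, 303, 838 and 814 peaks there, and WT replicates 1 to 3 had 872, 1157 and 834. Per Mb this was 244.5, 151.5, 419.0 and 407.0 peaks in Q111/+ against 49.3, 40.9, 56.6 and 60 in the flanks. In WT it was 436.0, 578.5 and 417.0 peaks per Mb against 217.0, 124.0 and 77.5. The block was thus denser than its flanks in all 7 libraries, by 3.70-fold to 7.40-fold in Q111/+ and by 2.01-fold to 5.38-fold in WT. Of the 1 Mb windows of the genome, 2581 to 2584 with a peak in each list, the first Mb of the block ranked between 4 and 9 by peak number in every library, and the second Mb between 1 and 7. The block's peaks covered 3.52% to 17.7% of its length, and those of the flanks 0.807% to 5.24% of theirs.

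**Figure D1:**
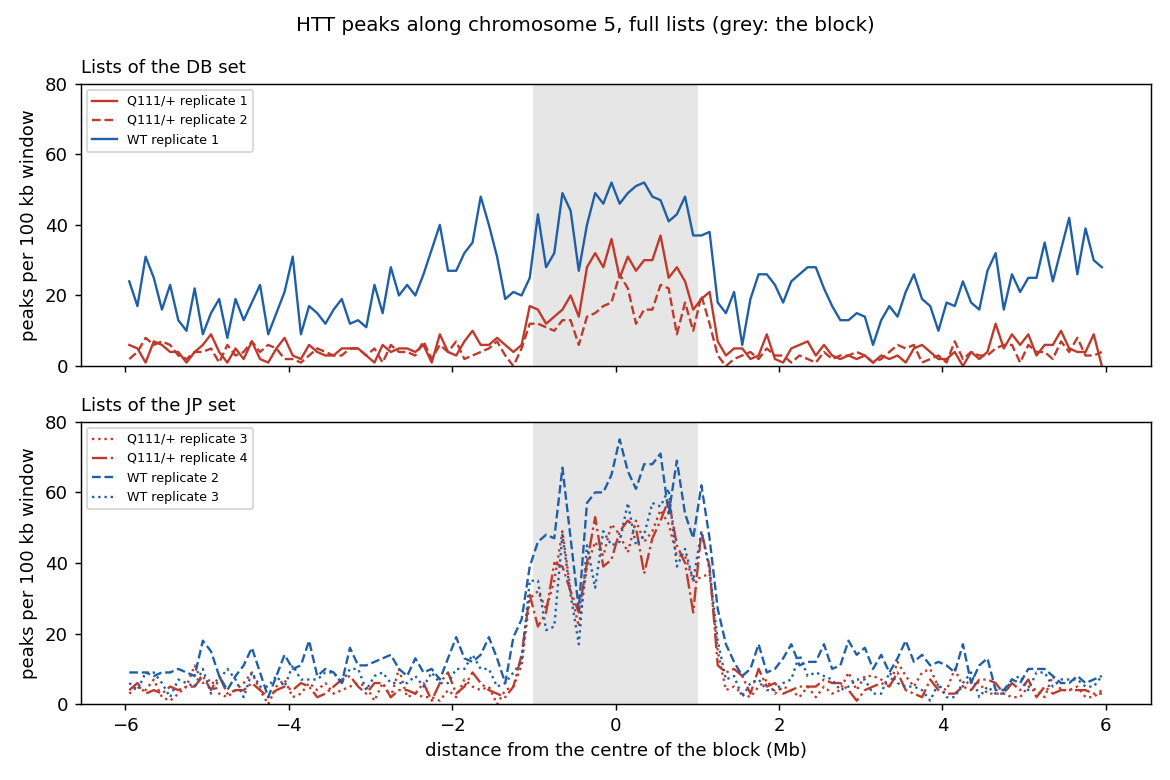
Peaks of each full list per 100 kb window (y axis) against the distance from the centre of the block in Mb (x axis), with the lists of the DB set above and of the JP set below, Q111/+ in red, WT in blue and the block in grey. The lines are higher over the block than beside it, least so for WT replicate 1, and the rise runs a little past both edges.

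The dense stretch did not stop at the edges that the rule set. The window from 93900001 to 94000000 held 189 peaks of the 7 lists, and the one before it 92. Beyond the upper edge the windows from 96000001 to 96100000 and from 96100001 to 96200000 held 272 and 232, and the next held 99. The 20 windows inside the block held 139 to 341, with a median of 281, where the median window of the genome held 50. At the lower edge, the last peak outside was chr5:93999447-93999737 of WT replicate 2 (authors' fold 3.71, 5 fragments) and the first inside was chr5:94002291-94002465 of WT replicate 3 (fold 3.12, 5 fragments). At the upper edge, the last inside was chr5:95999959-96000194 of Q111/+ replicate 4 (fold 2.89, 5 fragments) and the first outside chr5:96000746-96000968 of WT replicate 3 (fold 2.52, 4 fragments).

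Peaks were not spread evenly within the block. The longest stretch with no peak in any of the 7 full lists was chr5:94516956-94567841, 50.9 kb long, and the next longest were 5.46 and 4.96 kb. The window that holds it, from 94500001 to 94600000, had the fewest peaks of the block's windows, 139. In all, 47.1% of the block's bases lay under a peak of at least 1 full list, 19.6% under peaks of at least 2, 2.00% under peaks of at least 4 and 91 bases under peaks of all 7. In the lower and the upper flank, 11.9% and 12.8% of the bases lay under a peak of at least 1 list. Neighbouring peaks of 1 list stood closer together in the block than in the flanks, with a median distance between 1249.5 bp in WT replicate 2 and 4200.5 bp in Q111/+ replicate 2, against 3098 to 17125 bp.

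The peaks of the block held few fragments, though by their medians no fewer than those of the flanks, and were slightly wider. A fragment is a sequenced DNA piece under the summit, and its number was recovered from the authors' fold and −log10 p of each peak. All 5307 peaks gave a whole number, with a median of 5 fragments in Q111/+ replicates 1 and 2 and WT replicates 1 and 2 and of 6 in Q111/+ replicates 3 and 4 and WT replicate 3. The flank medians were 4 or 5. The authors' p rests on fragments multiplied by a scale. From unscaled fragments, a Poisson p of at most 0.001 was reached by 90, 45, 96 and 116 peaks of the block in Q111/+ replicates 1 to 4. In WT replicates 1 to 3 it was reached by 115, 200 and 250, so most peaks of the block did not reach it. The same held for the whole lists, for example with 5644 of 105854 peaks reaching it in Q111/+ replicate 3. The tallest peak of the block held 10 to 14 fragments, depending on the library. The peak of highest authors' fold was chr5:95990461-95991191 in Q111/+ replicate 1, with a fold of 6.63 over local background, and chr5:95084718-95084998 in Q111/+ replicate 2, with 7.38. In Q111/+ replicates 3 and 4 it was chr5:95607233-95608078 with 7.02 and chr5:95441554-95441948 with 7.32. In WT replicates 1, 2 and 3 it was chr5:94833428-94834063 with 9.31, chr5:95788771-95789258 with 7.28 and chr5:95486862-95487220 with 6.95. Each library thus had its highest fold at a different place. Median width in the block was 199 to 263 bp, against 173 to 213 bp in the flanks, and was larger in the block in each of the 7 libraries.

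The local background that the fold divides by had the same median under the block's peaks as under those of the flanks. It was 1.34, 1.3, 1.65 and 1.58 fragments per position in Q111/+ replicates 1 to 4 and 1.14, 1.21 and 1.44 in WT replicates 1 to 3, equal in the flanks to these digits. Its 90th percentile was higher in the block in 3 JP libraries, at 2.24 against 2.01 in Q111/+ replicate 3, 1.70 against 1.51 in WT replicate 2 and 2.1 against 1.91 in WT replicate 3. It was lower in Q111/+ replicate 1, at 1.73 against 1.92, and equal to 3 digits in the other libraries. The lowest background of a list, to within 1%, was the one used for 54.5% to 73.3% of the block's peaks and for 59.7% to 78.6% of those of the flanks. With most peaks of both at this lowest value, the medians had to fall on it. Their equality therefore does not show that the background was alike. With the ratio of medians tied over all libraries, a test between genotypes had nothing to compare.

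The excess over the flanks was larger among taller peaks. Among peaks of at least 4 fragments the block was 2.2-fold to 7.40-fold denser than the flanks, and among peaks of at least 8 it was 6.48-fold to 41.2-fold denser. The highest of these, 41.2-fold in WT replicate 2, came from 107 peaks in the block and 13 in the flanks, and the lowest, in WT replicate 1, from 57 and 44. At 9 or more fragments the ratio was higher still in 5 of the 7 libraries, for example 28.1 in Q111/+ replicate 3 (45 peaks in the block and 8 in the flanks) and 19.7 in WT replicate 3 (75 and 19). It was lower than at 8 in Q111/+ replicate 4, at 17.3, and in WT replicate 2, at 34.0. Peaks of greater height were few in block and flanks alike. At least 12 fragments were reached by 0, 0, 2 and 3 peaks of the block in Q111/+ replicates 1 to 4 and by 1, 0 and 6 in WT replicates 1 to 3, and by 0 to 2 peaks of a library's flanks. Those of the block were at most 0.251% of a list's peaks of that height, whereas among peaks of at least 8 fragments the block held 0.347% to 1.76%. Peaks of a list with a −log10 p over 60 were given no fragment number and are left out of both. The block and its flanks are a small part of the genome, so at every height most of a list's peaks lay outside them.

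**Figure D2:**
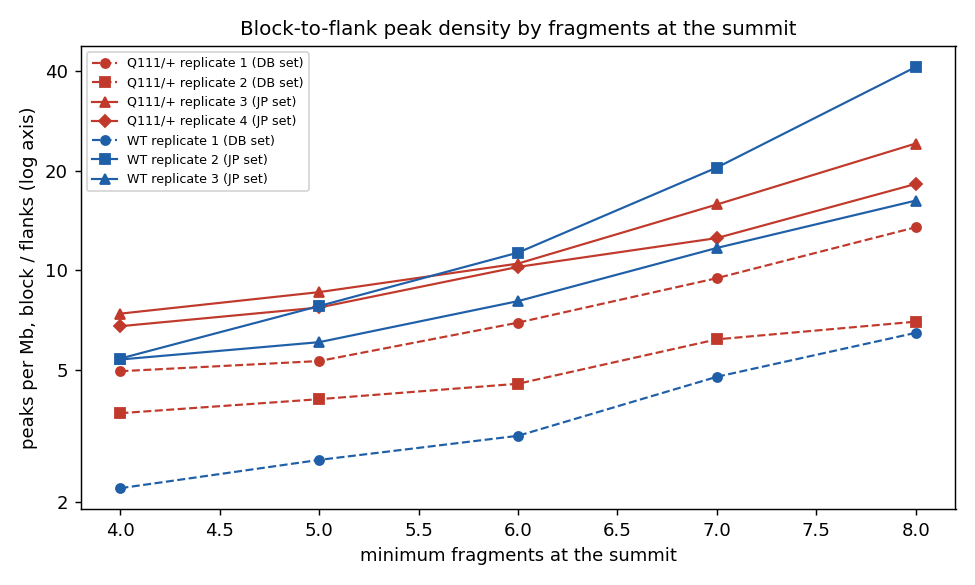
Ratio of peaks per Mb in the block to peaks per Mb in both flanks (y axis, log scale) for peaks with at least the number of fragments on the x axis, 1 line per library (Q111/+ red, WT blue, DB set dashed, JP set solid). Every line rises from 4 to 8 fragments, to between 6.48 and 41.2, and the genotypes are mixed at 8.

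The comparison of genotypes asked whether HTT peaks took up the block to the same extent in mutant and WT striatum. No difference passed the test, and the prefix sets stood further apart than the genotypes. The block held 0.439%, 0.341%, 0.792% and 0.735% of the peaks of Q111/+ replicates 1 to 4, and 0.176%, 0.465% and 0.607% of those of WT replicates 1 to 3. The genotypes overlap in these values: the lowest share was that of WT replicate 1, and 2 Q111/+ libraries lay below both other WT libraries. The mean was 0.577% ± 0.220 (SD, n = 4) in Q111/+ and 0.416% ± 0.220 (SD, n = 3) in WT. By prefix set it was 0.319% ± 0.133 (SD, n = 3) in DB and 0.650% ± 0.145 (SD, n = 4) in JP, whose libraries do not overlap. On the log2 scale Q111/+ minus WT was 0.56, a 1.48-fold ratio of geometric means (exact permutation test, two-sided, 35 splits, p = 0.457, with 0.0286 the smallest possible). WT replicate 1 carried most of that difference, which was 0.03 without it. The density over the flanks differed by 0.58 on the log2 scale (exact permutation p = 0.229), and by 0.14 without WT replicate 1. Benjamini-Hochberg adjustment over the 4 measures tested raised both p-values to 0.457.

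Within each prefix set the Q111/+ shares lay above the WT shares. In the DB set 0.439% and 0.341% stood against 0.176%, a 2.2-fold ratio, and in the JP set 0.792% and 0.735% stood against 0.465% and 0.607%, a 1.44-fold ratio. The mean within-set log2 difference was 0.83 (exact permutation within sets over 18 splits, p = 0.0556, the smallest possible, and 0.111 after adjustment over 4 measures). The number of peaks went the other way: Q111/+ was lower by a log2 difference of -0.74 over all libraries (exact permutation p = 0.171) and of -0.71 within the sets. The higher share therefore went with shorter lists. With lists cut to the 88920 peaks of highest −log10 p, the length of the shortest list, the shares were 0.475%, 0.341%, 0.887% and 0.837% in Q111/+ and 0.296%, 0.820% and 0.743% in WT. The cut fell at a −log10 p of 4.83, 3.00, 3.18 and 3.51 in Q111/+ replicates 1 to 4. In WT replicates 1 to 3 it fell at 11.6, 6.98 and 5.72, so equal length set a stricter limit in WT. The Q111/+ shares still lay above the WT shares within both sets, but the within-set difference fell to 0.29 (exact permutation p = 0.222). Among peaks of at least 8 fragments the within-set difference was 0.22 (0.39 in the DB set and 0.05 in the JP set, exact permutation p = 0.778), and the genotypes overlapped in both sets. Over all libraries it changed sign at that height, to -0.09 (exact permutation p = 0.83).

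**Figure D3:**
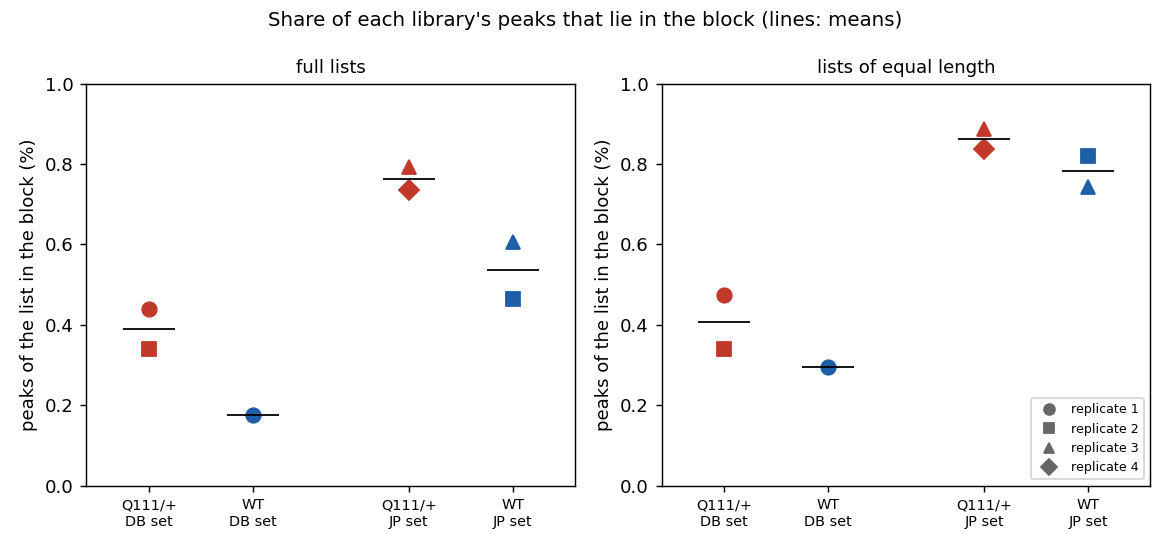
Share of each list's peaks that lie in the block in percent (y axis), for full lists on the left and for lists of equal length on the right, with 1 point per library, the marker giving the replicate and lines the mean of each genotype in each prefix set. The JP set lies above the DB set in both panels, and Q111/+ lies above WT within each set, by less when the lists have equal length.

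The height and width of the peaks did not separate the genotypes either. The median fold in the block exceeded that in the flanks by 0, 0, 0.307 and 0.515 in Q111/+ replicates 1 to 4 and by 0.766, 0.714 and 0.470 in WT replicates 1 to 3, so Q111/+ replicate 4 lay above WT replicate 3. The difference of the means, Q111/+ minus WT, was -0.44 (exact permutation p = 0.0857, adjusted p = 0.343), and it turned to 0.09 with lists of equal length. The ratio of block to flank width was 1.19 ± 0.0507 (SD, n = 4) in Q111/+ and 1.22 ± 0.0204 (SD, n = 3) in WT. Their log2 ratios differed by -0.03 (exact permutation p = 0.429, adjusted p = 0.457). In equal-length lists, whose limit on −log10 p is stricter in WT, the log2 difference became -0.15 (exact permutation p = 0.0286, the smallest possible, not adjusted).

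Peak numbers from lists of equal length were also compared in the 20 windows of 100 kb, and in 0 of them did the genotypes not overlap. This outcome was fixed by the prefix sets, each of which holds both genotypes. In all 20 windows every JP library had more peaks than every DB library, so the genotypes could not separate. The 0 therefore says nothing on genotype. In the genome 2.61% of 25553 windows were separated in either direction, 1.22% with Q111/+ higher and 1.39% with WT higher. The lowest exact permutation p of a block window was 0.314, and 0 had an unadjusted p under 0.05. The exact permutation test gave 451 such windows in the genome and none past adjustment, for which this design is too small. Within both prefix sets at once Q111/+ was higher in 5 of the 20 windows, against 3.84% of all windows, and WT was higher in 0, against 4.52%. These 5 start at 94200001, 94500001, 94700001, 95600001 and 95800001. In the window from 95600001 to 95700000, for example, Q111/+ replicates 1 to 4 had 23, 22, 48 and 53 peaks and WT replicates 1 to 3 had 13, 40 and 47. The windows are parts of 1 block, whose within-set difference in share was 0.29 in these lists (exact permutation p = 0.222). They also held more peaks than most windows, a median of 281 over the 7 full lists against 50, and tied counts, which leave a window uncalled, are likelier where peaks are few. How much of the 5 this accounts for was not tested.

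The split between the prefix sets was present in every window. All 4 JP libraries had more peaks than all 3 DB libraries in 20 of 20 windows of the block, against 6.35% of all windows, and DB was higher in 0 of 20, against 7.41%. In the window with the most peaks over the 7 full lists, from 95500001 to 95600000, the equal-length lists of the JP set had 53 and 49 peaks in Q111/+ and 52 and 43 in WT. The DB set had 29 and 23 in Q111/+ and 17 in WT. What sets the prefix sets apart was not tested.

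**Figure D4:**
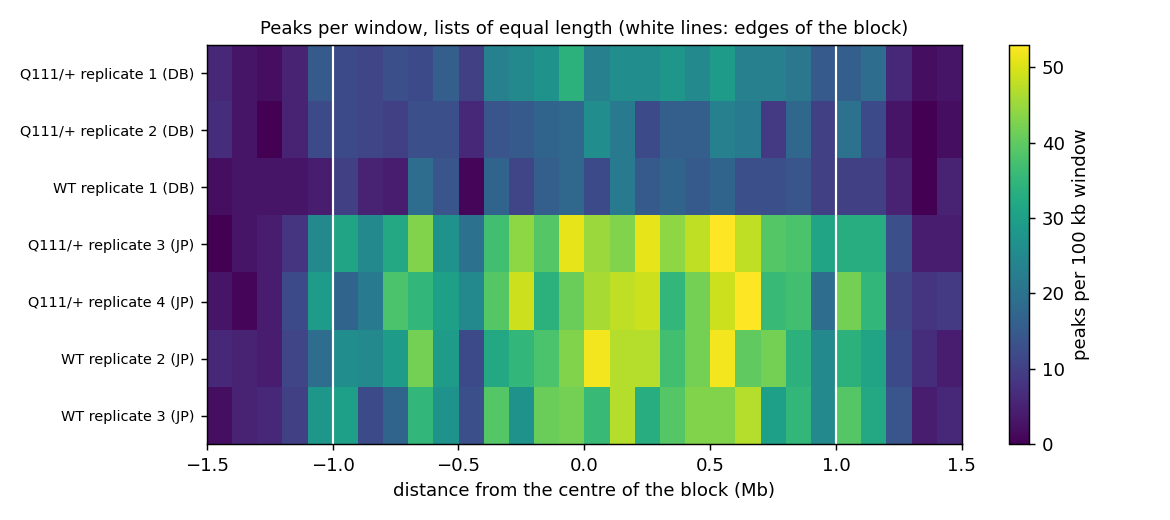
Peaks per 100 kb window (colour) in lists of equal length, for the 7 libraries (rows, with their prefix set) against the distance from the centre of the block in Mb (x axis), white lines marking the block's edges. The 4 JP rows are brighter than the 3 DB rows in every window of the block, and a darker window left of the centre, with 1 to 25 peaks, is seen in all rows.

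Recurrence was common in the block but seldom complete. Where peaks stand closer together, more of them overlap by position alone. How much of the recurrence this accounts for was not tested. Merging the peaks of the equal-length lists wherever they share 1 bp or more gave 1958 regions in the block. Of these, 52.9% were called in 1 library, against 87.6% in the flanks and 90.1% of the 536351 regions of the genome. In at least 4 libraries 220 regions, or 11.2%, were called, against 36 of the 2660 flank regions and 1.16% of the genome's. Most of the 36 lay where the dense stretch runs past the block's edges: 4 in the window starting at 93900001 and 9 each in those starting at 96000001 and 96100001. In all 7 libraries 7 regions, or 0.358%, were called, against 1 flank region and 0.205% of the genome's. The 7 make up 3.18% of the block's regions called in at least 4 libraries, where in the genome that figure is 17.7%. Regions called by more libraries were also wider, from a median of 212 bp in 1 library to 1476 bp in 7, since merging adds length. Most regions of 4 or more libraries stood in the upper part of the block: the windows starting at 95100001, 95600001 and 95500001 held 24, 20 and 19, and those starting at 94100001 and 94500001 held 3 and 4. The next lowest were those starting at 94000001 and 95900001, with 5 each.

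**Figure D5:**
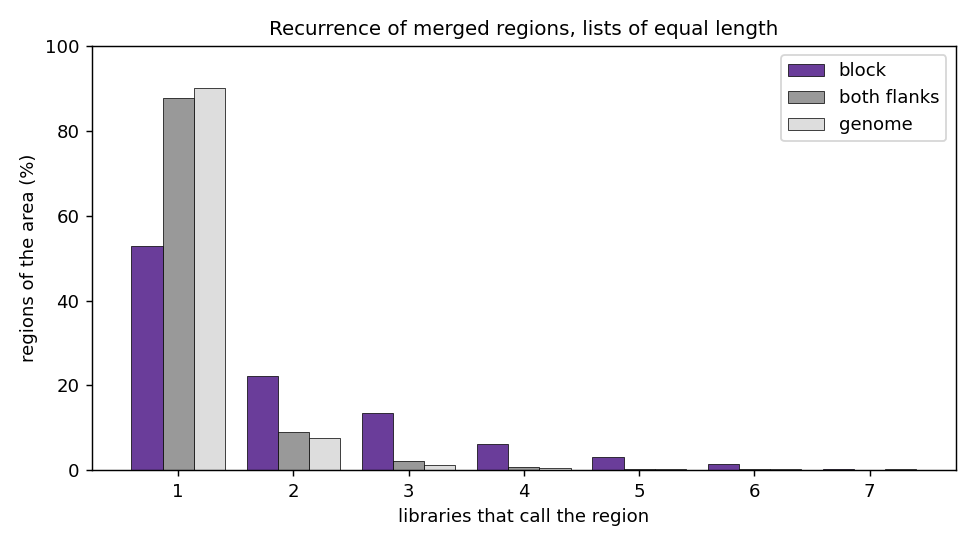
Regions merged from lists of equal length, in percent of the regions of the block, of both flanks and of the genome (y axis), by the number of libraries that call them (x axis). The block has the lowest bar at 1 library, 52.9%, and the highest from 2 to 7.

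The regions called in all 7 libraries rested on few fragments in each. The one ranked first, by its lowest percentile of −log10 p over the libraries, was chr5:94849544-94851019. Its authors' fold was 4.68, 3.42, 2.94 and 2.73 in Q111/+ replicates 1 to 4 and 7.78, 4.09 and 3.59 in WT replicates 1 to 3. These came from 7, 5, 7 and 6 fragments in Q111/+ and from 10, 6 and 6 in WT. A fold belongs to its own list, so folds at 1 place are given side by side and not compared between libraries. The region ranked next, chr5:95500901-95501865, had folds of 5.33, 4.16, 2.94 and 3.03 in Q111/+ and of 7.78, 5.41 and 3.27 in WT, from 8, 6, 7, 6, 10, 8 and 6 fragments. Region chr5:95222492-95223420 had 7, 6, 8 and 6 fragments in Q111/+ and 6, 5 and 9 in WT. Region chr5:94083323-94084595, nearest to the lower edge, had 5, 6, 5 and 5 in Q111/+ and 8, 8 and 12 in WT. The other regions, chr5:95618398-95620134, chr5:95063969-95065538 and chr5:94669785-94672706, had between 5 and 8 fragments in every library. The last is the widest of the 7, at 2922 bp, and its summits lie up to 1777 bp apart, so overlap after merging does not mean that the libraries share 1 summit there.

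Few regions were called in 1 genotype alone. Among the block's 265 regions of exactly 3 libraries, 14 were those of all WT and no Q111/+ library, or 5.28%, against 6.75% of such regions in the genome. Among its 122 regions of exactly 4 libraries, 3 were those of all Q111/+ and no WT library, or 2.46%, against 2.48%. Both shares were near the background. The prefix sets gave another picture: 28 of the 122, or 23.0%, were those of all JP and no DB library, against 7.73%, whereas 3 of the 265, or 1.13%, were those of all DB and no JP library, against 2.8%.

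None of the 14 WT regions had a peak in a full Q111/+ list. That check adds little, since these lists hold few further peaks in the block. Q111/+ replicates 1 to 4 had 489, 303, 838 and 814 there in full and 422, 303, 789 and 744 at equal length. The first by rank, chr5:94435783-94436620, had folds of 5.48, 4.42 and 3.71 in WT replicates 1 to 3, from 7, 6 and 6 fragments. Region chr5:95995392-95995584, next to the upper edge, had the same folds and fragments, and its summits lay within 28 bp. Region chr5:94920002-94920602 had 6 fragments in each WT library. Region chr5:95148782-95149270 had folds of 4.72, 6.56 and 6.09 from 6, 9 and 10 fragments and the same summit position in all 3. Region chr5:95219618-95220128 had 10, 5 and 6 fragments. Of the 3 Q111/+ regions, chr5:94378465-94379255 had a peak in the full list of WT replicate 2, which the equal-length list left out. Its folds were 3.38, 2.82, 3.85 and 3.41 in Q111/+ replicates 1 to 4, from 5, 4, 7 and 6 fragments. Region chr5:95178599-95179213 had 6, 8, 7 and 5 fragments, and chr5:95617175-95617726 had 6, 4, 5 and 5. Neither had a peak in a full WT list.

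Libraries shared more of their covered bases in the block than in the flanks, but they also covered more of it. Peaks of a full list covered 3.52% to 17.7% of the block and 0.807% to 5.24% of the flanks. Overlap rises with coverage alone, and how much of it coverage accounts for was not tested. The bases covered in both of a pair of equal-length lists were on average 7.65% of the bases covered in either (21 pairs, 4.28% to 13%), against 3.31% in the flanks. Pairs of the same genotype shared 7.73% and pairs of different genotypes 7.58%. Pairs within the JP set shared 10.8%, pairs within the DB set 5.44% and mixed pairs 6.61%, the JP libraries also covering more of the block. The pair with the highest value was WT replicates 2 and 3, whose shared bases were 19.8% of those covered in replicate 2 and 27.7% of those covered in replicate 3. Of a library's block peaks, 66.9% to 85.6% overlapped a peak of another library, against 20.8% to 30.2% of its flank peaks. For peaks of at least 8 fragments in the block the range was 64.8% in Q111/+ replicate 1, with 54 such peaks, to 87.7% in WT replicate 1, with 57. Among the 220 regions that 4 or more libraries called, Q111/+ replicates 1 to 4 called 117, 91, 164 and 182 and WT replicates 1 to 3 called 106, 189 and 174, so the 3 DB libraries called the fewest.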

How the data were processed

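HTT ChIP-seq peak lists of 7 libraries (4 Q111/+, 3 WT) were used, 1 list per library. Per the labels' protocols, striatal chromatin was fixed with formaldehyde and cut with micrococcal nuclease and sonication. Per the submitters' processing notes, which give no role or order, the tools were Bowtie2 2.2.5 and MACS2 2.1 and the build mm9, and the names of the deposited lists give a p limit of 0.001. No source used here says whether MACS2 was run against input. The deposited fold column is a ratio of a peak's pileup to the background around it. Further deposited columns hold −log10 p and −log10 q. The deposited score is 10 times the −log10 p, rounded down (in 99.9% to 100% of peaks), and was not used further.

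A peak was a member when its start lay in the block, and coordinates are 1-based. Fragments were recovered by finding, per library, the scale (4.20 to 6.16) at which fold and −log10 p fit a whole number of fragments, within 0.02 in −log10 p. At least 99.9% of peaks matched, against at most 0.3% with a wrong scale, and 100% of 8537 simulated peaks were right. Equal-length lists took the 88920 peaks of highest −log10 p, ties going by fold and then at random (seed 11). Their lowest −log10 p ran from 3.00 to 4.83 in Q111/+ and from 5.72 to 11.6 in WT. Groups were compared by exact permutation over 35 splits, and within prefix sets over 18. On simulated windows, 100% of 50 set higher in each genotype were found, and 2.90% of 25453 without a difference were called separated. The simulation held no difference between the prefix sets, and effects were set only in windows of many peaks. The 100% therefore does not carry over to the block, where the prefix sets fixed the outcome.

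The regions named in the text were chosen by a rule: those called in all 7 libraries, ranked by their lowest percentile of −log10 p, up to 5 called in 1 genotype alone by the same ranking, the windows with the most and fewest regions of at least 4 libraries, and the peak of highest fold per library. The member peaks and this rule were chosen with earlier results of these data known. The 5 windows named as higher in Q111/+, the example windows, the peak-free stretches and the pair with the highest overlap were chosen after their values were seen. Promoter pairs were aligned globally, and identity is the percent of alignment columns that match. Alternatives were list length, a −log10 q of at least 2, an unscaled fragment p of at most 0.001, covered bases, window size, overlap rule, blocks for prefix and replicate number, and each library left out. Minimums of 6 and 8 fragments, flanks without their inner 500 kb and another seed were added after seeing the data. Scripts ran in Python 3.11.15 (Biopython 1.88, matplotlib 3.10.9, numpy 2.4.6, pandas 2.3.3, scipy 1.17.1).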

Additional observations from a re-analysis of the deposited data

How the results depend on the processing

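With the prefix set or the replicate number as a block, or with 1 library left out, no p under 0.05 was possible. The side of 0.05 on which a p lay could therefore change only under the other alternatives. The directions of the differences between genotypes in share, density, fold and width, and that side where it could change, were kept except in the following. With at least 8 fragments the difference in share was -0.0941 (exact permutation p = 0.83) and that in density -0.19 (exact permutation p = 0.857). With lists of equal length the difference in fold was 0.0898 (exact permutation p = 0.6), and that in width ratio was -0.15 (exact permutation p = 0.0286, the only one under 0.05). Leaving out each library in turn gave 0.03 to 0.93 for share, 0.14 to 0.85 for density, -0.55 to -0.38 for fold and -0.05 to -0.01 for width ratio, and the lowest values of share and density were those without WT replicate 1. With the replicate number as a block, share was 0.42 (exact permutation p = 0.75), density 0.48 (p = 0.5), fold -0.55 (p = 0.25, the smallest possible) and width ratio -0.05 (p = 0.5). Deviations of same-numbered libraries over 2430 windows correlated at 0.83, -0.76 and 0.62. Pairs of different number correlated at 0.81 within a prefix set and at -0.59 to -0.86 between the sets. The sign followed the prefix set, so these values do not show whether the numbers pair the samples. Counts of regions moved. In full lists 21 were called in all 7 libraries and 39 in WT alone. With 10000 peaks per list these were 0 and 1, with 0 in Q111/+ alone, and with a reciprocal overlap of 50% they were 0, 9 and 0. Leaving out 1 library gave 7 to 20 called in all that remained, 16 to 41 in WT alone and 3 to 19 in Q111/+ alone, where fewer libraries have to agree. The highest of these came without Q111/+ replicate 2, WT replicate 1 and Q111/+ replicate 2. No window of the block was separated by genotype in full lists, in windows of 250 kb or without any 1 library. The split between the prefix sets limits what this count can show. The most frequent distance between regions was 25 kb in bins of 2 kb, 117 kb among regions called in all 7 libraries, 16 kb in full lists and 11 to 311 kb with 1 library left out. The cause of these changes was not tested. Depth is unknown, and the median peak holds 5 or 6 fragments, so absence from a list does not show absence of fragments.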

Other observations

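The distances between regions of the block gave no spacing that held. Between the 220 regions called in at least 4 libraries, and over distances of 5 to 500 kb in bins of 1 kb, the most frequent distance was 70 kb, with 41 pairs against a mean of 24.7 per bin, and 34.5% of the regions had a partner there. In single libraries it was 21, 124, 27 and 81 kb in Q111/+ replicates 1 to 4 and 5, 6 and 26 kb in WT replicates 1 to 3. No 2 libraries had the same most frequent distance.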
